A study of Mus musculus with 12 samples.

Results

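The genes described here encode the nuclear subunits of respiratory complexes III and IV and of the ATP synthase, with the electron carrier cytochrome c, in bone marrow-derived macrophages (BMDMs) of mice with and without the inducible nitric oxide (NO) synthase NOS2. They were chosen by symbol in the array annotation, as all genes starting with Uqcr, Cox4 to Cox8 or Atp5, plus Cyc1 and Cycs. The rule found 44 of the 18193 genes with a probe set of their own, of which 17 belong to the ATP synthase, 17 to complex IV and 9 to complex III, and the last is Cycs. Cox7b, to which the annotation gives no such probe set, is not analysed here. BMDMs were grown with M-CSF from the marrow of C57BL/6 (WT) mice and of Nos2-/- mice, whose allele (strain B6.129P2-Nos2tm1Lau/J) disrupts the gene in every cell and not in macrophages alone. The mice were 6 to 10 weeks old and matched for age and sex. Cells of each genotype were left untreated or were stimulated for 8 h with LPS (100 ng/mL) together with IFNγ (50 ng/mL), and each of the 4 groups had 3 biological replicates with 1 Affymetrix Mouse Genome 430 2.0 array each, 12 in all. The methods give vehicle (PBS) for the same time for the arrays called untreated here, whereas their labels describe cells before stimulation. Each value is the log2 signal of a probe set, made by the authors with RMA, and the brightest probe set of a gene, by its mean over the 12 arrays, stands for it, so that differences of 1 stand for a doubling and levels of different genes are not comparable.

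In the inner mitochondrial membrane, complex III passes electrons from ubiquinol to cytochrome c, and complex IV (cytochrome c oxidase) passes them from cytochrome c to oxygen. Both pump protons, and the ATP synthase lets these flow back through a ring of c subunits that turns the central stalk inside the F1 head, where ATP is made. The catalytic core of complex IV, cytochrome b of complex III and the a subunit of the ATP synthase are encoded by mitochondrial DNA. The genes below supply other subunits from the nucleus. Several complex IV subunits exist as a broadly expressed form and a form restricted to muscle, lung or testis. Macrophages activated with LPS and IFNγ are known to lower their respiration and to rely on glycolysis, and NO is known to bind complex IV in competition with oxygen. The comparisons ask how the transcripts of these subunits responded to stimulation, and whether the absence of NOS2 altered that response.

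The signal of Nos2 itself was 5.40 to 5.65 in the 3 untreated WT arrays, 9.64 to 9.81 in stimulated WT, 5.15 to 5.41 in untreated Nos2-/- and 7.45 to 7.88 in stimulated Nos2-/- BMDMs. The files do not say whether the deletion reaches its probe set, so these levels are no check of the genotypes. All 8 measured macrophage markers lay above the median gene signal of 6.12, with array medians of the list from 12.76 to 13.05 and Lyz2, a macrophage lysozyme, the highest. Below it lay 6 of 6 markers of cardiac and skeletal muscle, 6 of 6 of fibroblasts, 5 of 6 of T and NK cells, 4 of 5 of dendritic cells, 3 of 4 of B cells, 2 of 3 of the erythroid line, 2 of 4 of megakaryocytes and 2 of 7 of neutrophils. Because signals of different probe sets are not comparable, a signal on either side of the median is no measure of how many cells of a type were present. Within each group the arrays correlated at 0.9965 or above across probe sets.

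Stimulation lowered most of the subunit transcripts in both genotypes, by modest amounts, and raised cytochrome c. In WT BMDMs 30 of the 44 genes fell and 3 rose (limma, Benjamini-Hochberg adjusted p under 0.05 over all 18193 genes), where 28.4% of all genes fell and 29.6% rose. In Nos2-/- BMDMs 34 fell and 1 rose, where 28.2% of all genes fell and 26.3% rose. The median log2 fold change of the 44 genes was −0.25 in WT and −0.35 in Nos2-/- BMDMs, beside 0.07 and 0.05 over all genes. In 33 of the 44 genes the 3 stimulated WT arrays all lay below the 3 untreated ones, which held for 30.4% of all genes, and in 5 they all lay above, against 34.7%. In Nos2-/- BMDMs 36 genes lay wholly below, against 29.9% of all genes, and 1 wholly above, against 30.5%. The array median over the 44 genes was 11.51 to 11.54 in untreated WT, 11.16 to 11.22 in stimulated WT, 11.49 to 11.62 in untreated Nos2-/- and 11.05 to 11.14 in stimulated Nos2-/- BMDMs, so stimulated and untreated arrays did not overlap. Markers of cell types moved on stimulation as well. Of the 8 macrophage markers 5 fell and 2 rose in each genotype, with Cd68 at −0.87 and −0.91 and the Fc receptor Fcgr1 at 1.24 and 1.27 in WT and Nos2-/- BMDMs. In each genotype 3 of 7 neutrophil, 3 of 6 fibroblast and 3 of 6 muscle markers rose and 0 fell, S100a8, which activated macrophages also express, by 3.39 and 3.57 and the matrix gene Dcn by 0.96 and 1.03. Array medians of the macrophage list were 12.98 to 13.05 in untreated and 12.76 to 12.83 in stimulated arrays, and those of the neutrophil list 6.08 to 6.81 and 7.01 to 7.30. Each of the other 5 lists held 0 to 3 rises and 0 to 1 falls, and the part of any of these in the results was not tested. In whole cultures, fewer cells of a type and less RNA per cell cannot be told apart. The p-values measure the spread between 3 biological replicates a group, and the labels do not say how these relate to mice.

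Most of these genes are bright, and bright genes fell more often on these arrays. Of the 44, 38 lay above the median gene signal, and the 6 below it were Cox4i2, Cox6b2, Cox7a1, Cox7b2, Cox7c and Cox8b. Among the 9097 genes above the median, 49.5% fell in WT and 48.7% in Nos2-/- BMDMs, and 31 and 32 of the 38 subunit genes did, while 31.8% and 32.3% rose. In the brightest 1820 genes, a range chosen after the data were seen, 47.8% and 47.9% fell, beside 30 and 32 of the 35 subunit genes among them, and 40.2% and 40% rose. The calls also moved with the scaling of the arrays. With each array centred on its median, which raised the median of all genes to 0.18 in WT and 0.17 in Nos2-/- BMDMs, 20 subunit genes fell and 7 rose in WT and 29 fell and 5 rose in Nos2-/- BMDMs, and the medians of the 44 were −0.15 and −0.22. Over all genes, centring changed the counts from 5393 higher and 5166 lower to 8316 (45.7%) and 4527 (24.9%) in WT, and from 4788 and 5134 to 8090 (44.5%) and 4377 (24.1%) in Nos2-/- BMDMs. With quantile normalization 32 subunit genes fell in WT and 36 in Nos2-/- BMDMs and 3 rose in each, where 26.6% and 26.4% of all genes fell and 27.4% and 27.9% rose. Few of the changes reached 1.5-fold, 5 falls in WT and 7 in Nos2-/- BMDMs and 0 rises, where 16.9% and 17.2% of all genes fell by as much and 9.02% and 9.42% rose.

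**Figure D1:**
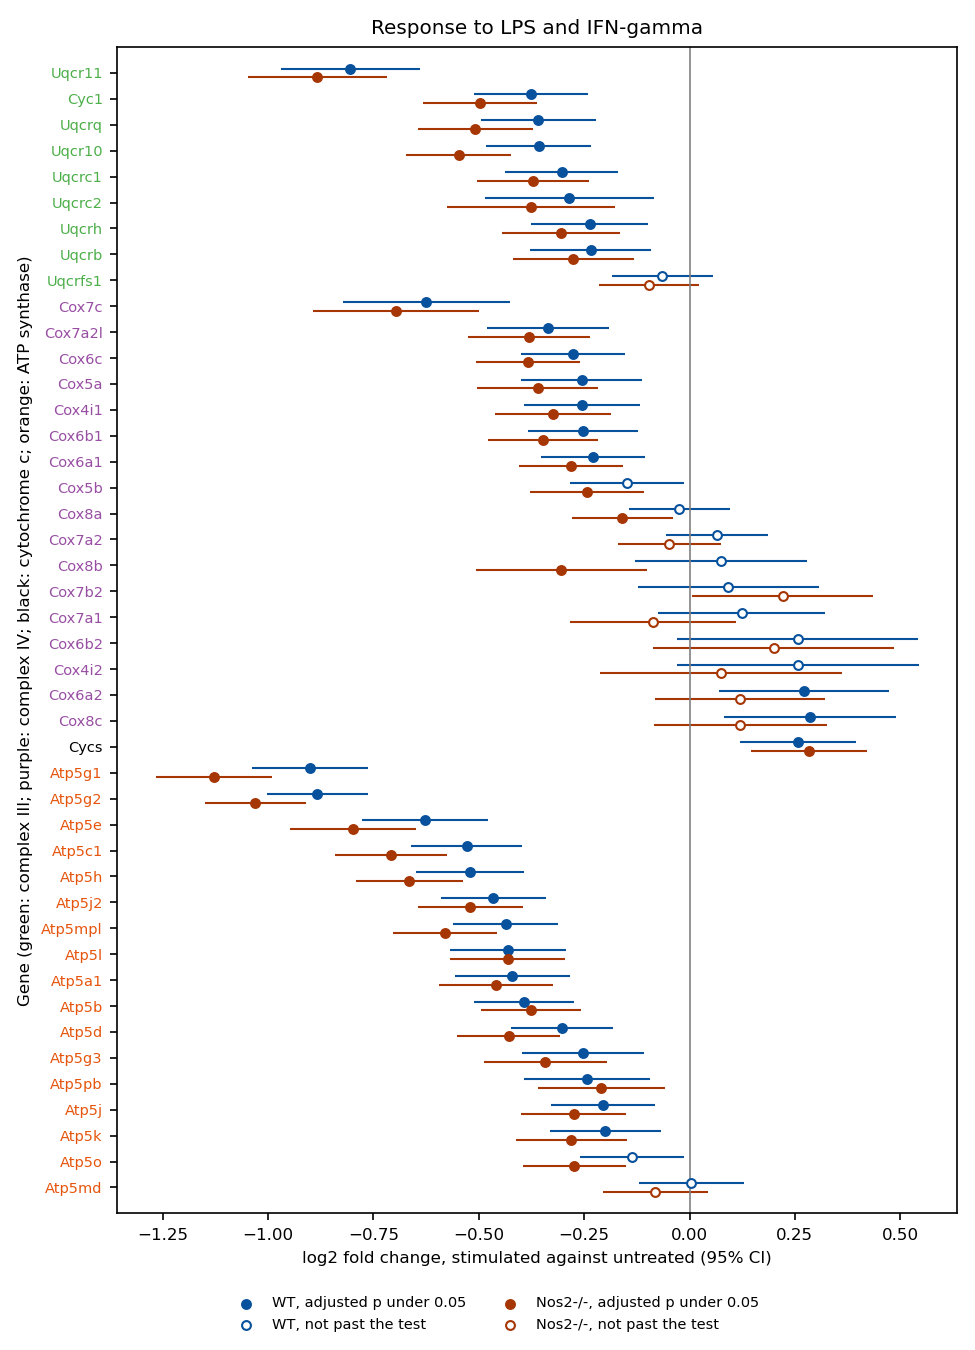
Log2 fold change of each of the 44 genes on stimulation (x axis, stimulated against untreated) in WT (blue) and Nos2-/- (brown) BMDMs, with bars for the 95% confidence interval from limma; filled points passed the test and the gene names are coloured by complex. Most points lie left of 0 in both genotypes, from −0.90 for Atp5g1 in WT, while Cycs lies to the right in both.

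The same 30 genes fell in both genotypes and no gene fell in WT alone. The falls called in Nos2-/- BMDMs alone were those of Atp5o, Cox5b, Cox8a and Cox8b, of which Atp5o and Cox5b passed in WT too under 7 alternatives each, and for none of these did the difference between the responses pass the test. Neither response was called for Atp5md, Uqcrfs1, Cox7a2 and the restricted isoforms Cox4i2, Cox6b2, Cox7a1 and Cox7b2. By role, all 5 genes of the F1 head with its central stalk fell in both genotypes, as did all 3 of the c ring and all 5 small subunits of complex III. The medians of these groups were −0.42, −0.88 and −0.36 in WT and −0.46, −1.03 and −0.51 in Nos2-/- BMDMs. Of the 10 genes grouped as broadly expressed in complex IV, 7 fell in WT and 9 in Nos2-/- BMDMs, with medians of −0.25 and −0.34. These counts include Cox7a2l, whose product joins complexes III and IV. Of the 7 restricted isoforms of complex IV 0 fell and 2 rose in WT, and 1 fell in Nos2-/- BMDMs.

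**Figure D2:**
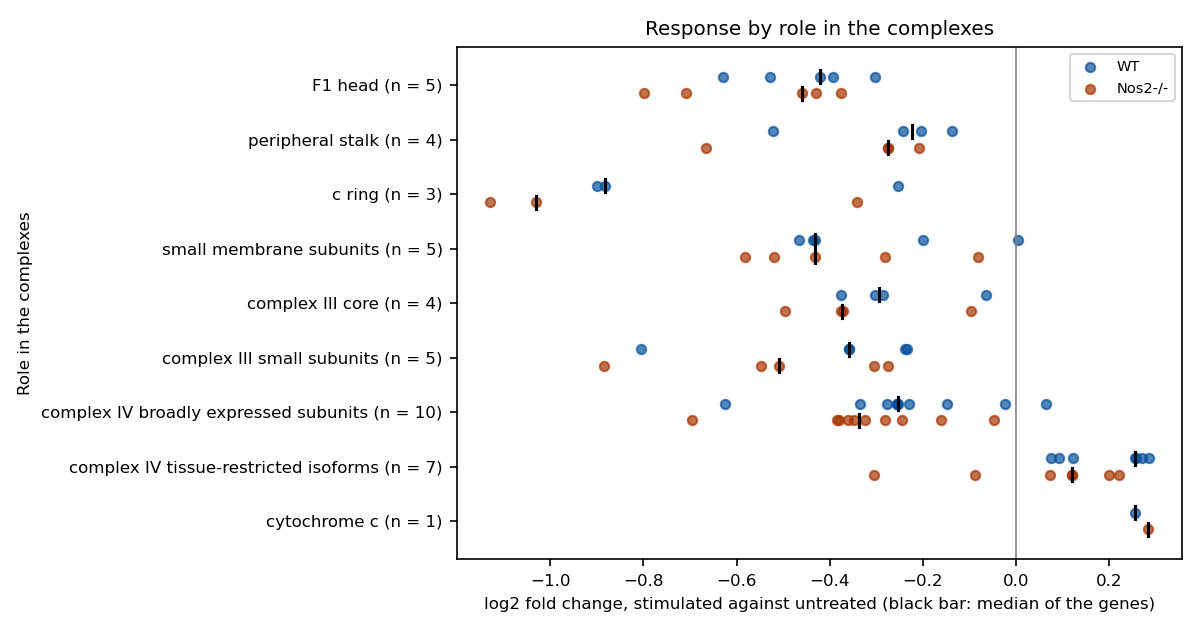
Log2 fold change on stimulation (x axis) of every gene, arranged by its role in the complexes (y axis, with the number of genes), in WT (blue) and Nos2-/- (brown) BMDMs; a black bar marks the median of each group. The c ring has the lowest medians, −0.88 and −1.03, with 1 of its 3 genes well apart from the others, and the restricted isoforms of complex IV lie mostly above 0.

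The largest falls were in the c ring, which is built from 1 mature protein that 3 genes, Atp5g1, Atp5g2 and Atp5g3, encode with different targeting peptides. Atp5g1 had signals of 10.30, 10.33 and 10.36 in untreated and 9.43, 9.39 and 9.46 in stimulated WT BMDMs, and of 10.42, 10.39 and 10.45 in untreated and 9.39, 9.30 and 9.19 in stimulated Nos2-/- BMDMs. Its untreated and stimulated arrays were thus far apart in each genotype, while the stimulated arrays of the genotypes lay next to each other. The log2 fold change was −0.90 (95% CI −1.04 to −0.76, adjusted p = 2.5e-08 from limma) in WT, a signal 46.4% lower, and −1.13 (95% CI −1.27 to −0.99, adjusted p = 2e-09) in Nos2-/- BMDMs, a signal 54.3% lower. Atp5g2 went from 11.15, 11.13 and 11.17 to 10.30, 10.20 and 10.30 in WT and from 11.20, 11.21 and 11.19 to 10.17, 10.15 and 10.18 in Nos2-/- BMDMs. Again no stimulated array reached an untreated one, with log2 fold changes of −0.88 (adjusted p = 6.9e-09 from limma) and −1.03 (adjusted p = 1.2e-09), each with a standard error of 0.06, and signals 45.8% and 51.0% lower. Atp5g3 moved far less. Its signals were 12.33, 12.44 and 12.44 in untreated and 12.22, 12.09 and 12.14 in stimulated WT, and 12.49, 12.41 and 12.41 in untreated and 12.14, 12.15 and 11.99 in stimulated Nos2-/- BMDMs. The fold changes of Atp5g3 were −0.25 (95% CI −0.40 to −0.11, adjusted p = 0.0055 from limma) and −0.34 (95% CI −0.49 to −0.20, adjusted p = 0.0006), and its interval lies apart from that of Atp5g1 in each genotype. The WT call of Atp5g3 was lost with arrays centred on their medians (−0.15, adjusted p = 0.0668). The promoters of these genes are shown with those of Uqcr11, the complex III gene that fell most, and Cycs, which rose in both genotypes. Each runs from 250 bases before to 50 bases after a RefSeq start site in GRCm38.p6, and all 5 lie on the minus strand and read 5′ to 3′ along the gene. They are chr11:96075582-96075881 for Atp5g1, chr15:102670998-102671297 for Atp5g2, chr2:73911277-73911576 for Atp5g3, chr10:80406772-80407071 for Uqcr11 and chr6:50566520-50566819 for Cycs. Capitals mark matches to motifs of factors known to act on respiratory genes, in either orientation. Their letters are given with the shares of promoters below, except for the longer motif of NRF-1, which allows any base at 1 position and whose matches are seen in the capitals. In Atp5g2 they mark an NRF-1 motif that starts at position −42 from the start site, in Atp5g3 an ERR motif at −52 and an NRF-1 motif at 13, in Uqcr11 an ETS motif at −66 and in Cycs a cAMP response element (CRE) at −169. Atp5g1 held none of the letters searched.
Atp5g1: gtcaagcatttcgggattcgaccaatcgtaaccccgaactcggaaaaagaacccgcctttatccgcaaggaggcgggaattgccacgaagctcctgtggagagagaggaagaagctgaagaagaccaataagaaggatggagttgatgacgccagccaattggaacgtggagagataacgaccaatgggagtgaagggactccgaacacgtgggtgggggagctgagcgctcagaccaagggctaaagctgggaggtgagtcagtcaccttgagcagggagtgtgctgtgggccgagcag
Atp5g2: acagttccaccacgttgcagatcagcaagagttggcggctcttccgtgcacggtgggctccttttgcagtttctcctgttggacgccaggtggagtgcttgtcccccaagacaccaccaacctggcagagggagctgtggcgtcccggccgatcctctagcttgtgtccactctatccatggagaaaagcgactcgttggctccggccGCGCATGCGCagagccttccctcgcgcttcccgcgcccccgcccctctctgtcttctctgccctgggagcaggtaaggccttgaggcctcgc
Atp5g3: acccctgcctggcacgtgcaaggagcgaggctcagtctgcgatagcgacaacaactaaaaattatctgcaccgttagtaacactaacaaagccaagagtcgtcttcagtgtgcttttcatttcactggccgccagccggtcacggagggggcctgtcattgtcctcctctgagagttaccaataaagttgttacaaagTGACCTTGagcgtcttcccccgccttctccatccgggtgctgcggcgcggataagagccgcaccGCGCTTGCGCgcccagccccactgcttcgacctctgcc
Uqcr11: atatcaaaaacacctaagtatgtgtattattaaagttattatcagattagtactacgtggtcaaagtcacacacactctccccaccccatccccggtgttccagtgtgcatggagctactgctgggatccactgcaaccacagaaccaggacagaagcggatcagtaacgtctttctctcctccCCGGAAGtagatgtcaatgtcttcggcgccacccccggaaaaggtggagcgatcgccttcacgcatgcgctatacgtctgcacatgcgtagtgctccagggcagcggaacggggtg
Cycs: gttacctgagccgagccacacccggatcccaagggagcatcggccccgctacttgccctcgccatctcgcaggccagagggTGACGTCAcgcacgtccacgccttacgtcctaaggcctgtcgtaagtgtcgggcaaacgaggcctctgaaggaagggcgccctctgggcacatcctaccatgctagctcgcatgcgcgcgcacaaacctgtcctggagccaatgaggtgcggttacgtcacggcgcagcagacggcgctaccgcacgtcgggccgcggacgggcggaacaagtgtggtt

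In the F1 head, the epsilon subunit Atp5e of the central stalk fell most. Its signals were 11.73, 11.73 and 11.65 in untreated and 11.02, 11.01 and 11.21 in stimulated WT BMDMs, and 11.80, 11.77 and 11.75 in untreated and 11.06, 10.97 and 10.91 in stimulated Nos2-/- BMDMs. The log2 fold changes were −0.63 (standard error 0.07) and −0.80 (standard error 0.07). Atp5c1, the gamma subunit that forms the shaft of the central stalk, went from 12.03, 12.09 and 12.14 to 11.55, 11.57 and 11.55 in WT (log2 fold change −0.53, standard error 0.06) and from 12.19, 12.06 and 12.18 to 11.42, 11.48 and 11.39 in Nos2-/- BMDMs (−0.71, standard error 0.06). In both genes the groups were separate in each genotype. Atp5a1, the alpha subunit, whose protein the study followed by western blot, had signals of 12.26, 12.33 and 12.33 in untreated and 11.92, 11.80 and 11.95 in stimulated WT, and 12.41, 12.30 and 12.33 in untreated and 11.92, 11.87 and 11.87 in stimulated Nos2-/- BMDMs. Its fold changes were −0.42 (95% CI −0.56 to −0.28, adjusted p = 5.1e-05 from limma) and −0.46 (95% CI −0.59 to −0.32, adjusted p = 2.1e-05), a signal 25.3% and 27.3% lower. The catalytic beta subunit Atp5b fell by 0.39 in WT and 0.38 in Nos2-/- BMDMs on the log2 scale, and its untreated arrays in both genotypes lay between 12.27 and 12.31. Atp5d, the delta subunit, fell by 0.30 and 0.43.

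The peripheral stalk holds the head still against the turning ring, and its 4 genes fell unequally. Atp5h, its d subunit, fell by 0.52 in WT and 0.66 in Nos2-/- BMDMs on the log2 scale (standard error 0.06 in each), whereas Atp5pb (b) fell by 0.24 and 0.21 and Atp5j (F6) by 0.20 and 0.28. Atp5o, which encodes OSCP, the subunit that joins stalk and head, was at −0.14 in WT (adjusted p = 0.0534 from limma) and at −0.27 in Nos2-/- BMDMs (adjusted p = 0.0009), and the difference between these was −0.14 (95% CI −0.31 to 0.04, adjusted p = 0.613). The fall of Atp5o in WT passed under 7 alternatives, with adjusted p from 0.0036 (quantile normalization) to 0.0487 (without Nos2-/- stimulated replicate 3) from limma, and the call in Nos2-/- BMDMs was lost with the mean of its probe sets (−0.14, adjusted p = 0.0559). Of the small membrane subunits around the ring, Atp5j2 (f), Atp5mpl and Atp5l (g) fell by 0.47, 0.44 and 0.43 in WT BMDMs and Atp5k (e) by 0.20. In Nos2-/- BMDMs the same genes fell by 0.52, 0.58, 0.43 and 0.28. Atp5md, whose small protein (DAPIT) helps ATP synthases to pair, did not pass in either genotype. Its signals were 10.61, 10.64 and 10.68 in untreated and 10.65, 10.62 and 10.69 in stimulated WT, and 10.68, 10.65 and 10.64 in untreated and 10.62, 10.60 and 10.51 in stimulated Nos2-/- BMDMs, a log2 fold change of 0.00 (95% CI −0.12 to 0.13) and of −0.08 (95% CI −0.21 to 0.04). The calls of Atp5pb depended on the setting, being lost with centring in WT (−0.14) and Nos2-/- BMDMs (−0.09) and in Nos2-/- BMDMs without untreated replicate 1 (−0.18, adjusted p = 0.0763 from limma), untreated replicate 2 (−0.18, adjusted p = 0.077) or stimulated replicate 3 (−0.20, adjusted p = 0.0525). Centring also ended the WT calls of Atp5j and Atp5k.

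In complex III, 8 of 9 genes fell in each genotype, and Uqcr11, the smallest subunit, fell most. Its signals were 10.60, 10.59 and 10.62 in untreated and 9.86, 9.68 and 9.85 in stimulated WT, and 10.66, 10.54 and 10.58 in untreated and 9.78, 9.79 and 9.56 in stimulated Nos2-/- BMDMs. All stimulated arrays lay below all untreated ones, with log2 fold changes of −0.81 (95% CI −0.97 to −0.64, adjusted p = 5.2e-07 from limma) and −0.88 (95% CI −1.05 to −0.72, adjusted p = 1.8e-07). The other small subunits Uqcrq, Uqcr10, Uqcrh (the hinge protein between cytochromes c1 and c) and Uqcrb fell by 0.36, 0.36, 0.24 and 0.23 in WT and by 0.51, 0.55, 0.30 and 0.28 in Nos2-/- BMDMs. The calls of Uqcrq rest on 1 bright probe set of 4, since with the mean of all 4 it was at −0.0028 (adjusted p = 0.97 from limma) and −0.06 (adjusted p = 0.355), and with the bright set, an _s_at set, left out it turned to 0.17 and 0.19. Among the core genes, Cyc1, which carries the heme of cytochrome c1, went from 10.86, 10.94 and 10.88 to 10.45, 10.53 and 10.57 in WT and from 10.97, 10.94 and 10.88 to 10.49, 10.44 and 10.36 in Nos2-/- BMDMs. These are fold changes of −0.38 (standard error 0.06) and −0.50 (standard error 0.06), with no overlap between the groups. The core protein Uqcrc1 fell by 0.30 in WT and 0.37 in Nos2-/- BMDMs. Uqcrc2, the other core protein and the one followed by western blot, varied more between arrays. Its signals were 10.73, 10.78 and 10.60 in untreated and 10.22, 10.46 and 10.57 in stimulated WT, and 10.84, 10.73 and 10.63 in untreated and 10.46, 10.32 and 10.31 in stimulated Nos2-/- BMDMs. The log2 fold changes of Uqcrc2 were −0.29 (95% CI −0.49 to −0.09, adjusted p = 0.0174 from limma) and −0.38 (95% CI −0.58 to −0.18, adjusted p = 0.0033). The call of Uqcrc2 in WT was lost without stimulated replicate 1, which has the lowest of its signals (−0.19, adjusted p = 0.0904), without untreated replicate 1 (−0.27, adjusted p = 0.0507) or 2 (−0.25, adjusted p = 0.0678), and with centring (−0.18, adjusted p = 0.101), all from limma. Centring also ended the calls of Uqcrh in WT and of Uqcrb in both genotypes.

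The Rieske iron-sulfur protein Uqcrfs1, which takes electrons from ubiquinol, was the exception in complex III. Its signals were 10.48, 10.50 and 10.47 in untreated and 10.40, 10.40 and 10.45 in stimulated WT, and 10.53, 10.52 and 10.54 in untreated and 10.47, 10.38 and 10.44 in stimulated Nos2-/- BMDMs. The stimulated arrays lay below the untreated ones in each genotype, but the log2 fold changes were only −0.06 (95% CI −0.18 to 0.06, adjusted p = 0.336 from limma) and −0.10 (95% CI −0.22 to 0.02, adjusted p = 0.16). In Nos2-/- BMDMs the fall of Uqcrfs1 passed with quantile normalization (−0.14, adjusted p = 0.0309 from limma) and with the unmoderated linear model (adjusted p = 0.0106), and in both settings that use the brightest genes. Cycs, the mobile carrier between complexes III and IV that also triggers apoptosis when released, was the 1 gene that rose in both genotypes. It had signals of 12.37, 12.27 and 12.29 in untreated and 12.55, 12.56 and 12.59 in stimulated WT, and 12.34, 12.39 and 12.21 in untreated and 12.57, 12.58 and 12.64 in stimulated Nos2-/- BMDMs. Every stimulated array lay above every untreated one. The log2 fold changes of Cycs were 0.26 (95% CI 0.12 to 0.39, adjusted p = 0.0034 from limma) and 0.28 (95% CI 0.15 to 0.42, adjusted p = 0.0017). The rise was called in both genotypes under every alternative that set no minimum fold.

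**Figure D3:**
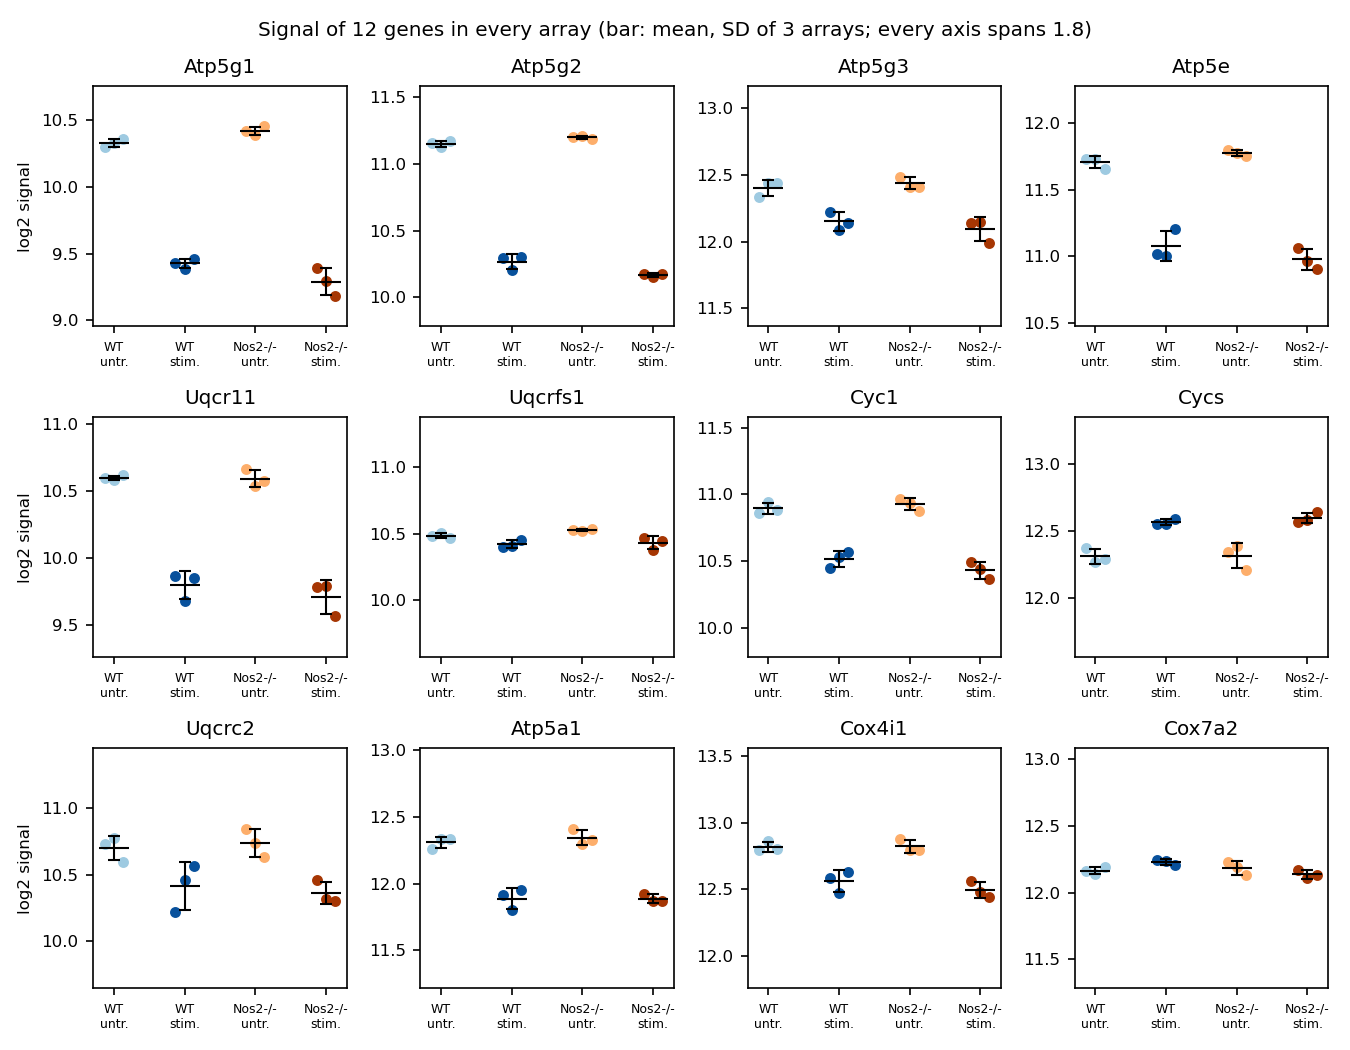
Log2 signal (y axis) of 12 genes in every array of the 4 groups (x axis, untr. for untreated and stim. for stimulated), with the mean as a wide bar and the SD of 3 arrays as whiskers; each axis spans 1.8. Atp5g1, Atp5g2, Atp5e and Uqcr11 drop clearly on stimulation in both genotypes, Atp5g3 drops by less, Uqcrfs1 and Cox7a2 stay within about 0.1 of their untreated means, and Cycs rises.

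In complex IV the genes grouped as broadly expressed that fell did so by 0.23 to 0.28 in WT BMDMs, apart from Cox7c and Cox7a2l. Cox4i1, the regulatory subunit that binds ATP, had signals of 12.79, 12.86 and 12.80 in untreated and 12.58, 12.47 and 12.63 in stimulated WT, and 12.88, 12.79 and 12.79 in untreated and 12.56, 12.48 and 12.45 in stimulated Nos2-/- BMDMs. Its log2 fold changes were −0.26 (95% CI −0.39 to −0.12, adjusted p = 0.0036 from limma) and −0.32 (95% CI −0.46 to −0.19, adjusted p = 0.0006). Cox6c, Cox5a, Cox6b1 and Cox6a1 fell by 0.28, 0.26, 0.25 and 0.23 in WT and by 0.38, 0.36, 0.35 and 0.28 in Nos2-/- BMDMs. With centring the WT calls of Cox4i1, Cox5a and Cox6a1 were lost, at −0.15, −0.15 and −0.13. Cox7a2l, which the rule takes for its letters but which encodes a factor joining complexes III and IV into a supercomplex, went from 11.07, 11.06 and 10.97 to 10.70, 10.67 and 10.72 in WT (log2 fold change −0.34) and from 11.15, 11.05 and 11.01 to 10.80, 10.63 and 10.63 in Nos2-/- BMDMs (−0.38). Its paralog Cox7a2, the broadly expressed 7A subunit, was not called in either genotype. Cox7a2 had signals of 12.16, 12.14 and 12.19 in untreated and 12.25, 12.24 and 12.21 in stimulated WT, and 12.23, 12.19 and 12.13 in untreated and 12.17, 12.11 and 12.13 in stimulated Nos2-/- BMDMs. Its stimulated WT arrays all lay above the untreated ones, and its Nos2-/- arrays overlapped. The differences of 0.06 (95% CI −0.06 to 0.19) and −0.05 (95% CI −0.17 to 0.07) turned on the scaling, since Cox7a2 was called higher in WT with centring (0.17, adjusted p = 0.0231 from limma) and lower in Nos2-/- BMDMs with quantile normalization (−0.17, adjusted p = 0.0178).

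Cox7c showed the largest fall in complex IV, but in a dim probe set with a mean signal of 5.37. It read 5.45, 5.74 and 5.64 in untreated and 4.83, 5.02 and 5.12 in stimulated WT, and 5.77, 5.80 and 5.79 in untreated and 5.17, 4.96 and 5.15 in stimulated Nos2-/- BMDMs, with log2 fold changes of −0.62 (standard error 0.09) and −0.70 (standard error 0.09). Cox5b and Cox8a, which supply a zinc-binding and a small membrane subunit, were called in Nos2-/- BMDMs alone. Cox5b was at −0.15 in WT (adjusted p = 0.0569 from limma) and −0.24 in Nos2-/- BMDMs (adjusted p = 0.0043), and Cox8a at −0.02 (adjusted p = 0.725) and −0.16 (adjusted p = 0.0255). The difference between the responses was −0.10 (95% CI −0.29 to 0.10) for Cox5b and −0.14 (95% CI −0.30 to 0.03) for Cox8a. The fall of Cox5b in WT passed under 7 alternatives, with adjusted p from 0.0044 (quantile normalization) to 0.0487 (without Nos2-/- stimulated replicate 3) from limma. The call of Cox5b in Nos2-/- BMDMs was lost with centring (−0.12) and with the mean of its probe sets (−0.11) and turned to 0.18 without _s_at, _x_at and _a_at sets. The Cox8a call was lost without Nos2-/- untreated replicate 1 (adjusted p = 0.0567 from limma) or 3 (adjusted p = 0.0725), without stimulated replicate 2 (adjusted p = 0.0523) or 3 (adjusted p = 0.0637), with centring (−0.04), and with the Nos2-/- arrays fitted alone (adjusted p = 0.0759).

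The 7 restricted isoforms had low signals, and 5 of them lay below the median gene. In WT, Cox8c, the testis form of subunit 8, went from 7.37, 7.72 and 7.45 to 7.89, 7.73 and 7.79 (log2 fold change 0.29, 95% CI 0.08 to 0.49, adjusted p = 0.0195 from limma), and Cox6a2, the heart and muscle form of 6A, from 6.32, 6.41 and 6.52 to 6.84, 6.61 and 6.60 (0.27, 95% CI 0.07 to 0.47, adjusted p = 0.023). In these genes the untreated and stimulated WT arrays lay close together without overlapping. In Nos2-/- BMDMs both were at 0.12, which did not pass, but with centring (0.24 each) and quantile normalization (0.38 for Cox8c and 0.35 for Cox6a2) both were called higher there too, and Cox8c also with the mean of its probe sets (0.52, adjusted p = 0.0004 from limma). The difference between the responses was −0.17 (95% CI −0.46 to 0.12) for Cox8c and −0.15 (95% CI −0.44 to 0.13) for Cox6a2. Both WT calls were lost without stimulated replicate 1 (0.24 for Cox8c and 0.19 for Cox6a2) or untreated replicate 1 (0.21 and 0.22). That of Cox8c was also lost without untreated replicate 3 (0.25). That of Cox6a2 was also lost without untreated replicate 2 (0.27) and with the mean of its probe sets (0.22, adjusted p = 0.0534 from limma). Centring on the brightest genes ended the WT call of Cox6a2 too (0.23, adjusted p = 0.0566 from limma). Cox8b, the muscle form of subunit 8, fell in Nos2-/- BMDMs alone, from 4.70, 4.61 and 4.90 to 4.38, 4.53 and 4.38 (−0.30, adjusted p = 0.0137 from limma), against 4.44, 4.56 and 4.78 and 4.61, 4.70 and 4.70 in WT (0.07). That call was lost without untreated replicate 3 (−0.22, adjusted p = 0.0723) and with centring (−0.18, adjusted p = 0.101). The lung form Cox4i2, the testis forms Cox6b2 and Cox7b2 and the muscle form Cox7a1 ran from 0.09 to 0.26 in WT and from −0.09 to 0.22 in Nos2-/- BMDMs, with 0 calls in the 4 genes. Of these, Cox4i2, Cox6b2 and Cox7a1 were called higher in WT with centring, and Cox6b2 and Cox7b2 in Nos2-/- BMDMs.

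Untreated BMDMs of the genotypes did not differ detectably in any of the 44 genes. With limma 0 were higher, where 0.0055% of all genes were, and 0 were lower, where again 0.0055% were. An unadjusted p under 0.05 was reached by 0 of the 44 genes and by 728 of all 18193. The differences ran from −0.11 to 0.18 on the log2 scale with a median of 0.03, and the intervals of the 37 genes other than the restricted isoforms lay between −0.19 and 0.37. In 8 genes the 3 untreated Nos2-/- arrays all lay above the 3 WT arrays, which held for 6.24% of all genes, and in 0 genes below, against 6.4%.

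After stimulation 0 of the 44 genes were called between the genotypes in either direction (limma). Over all genes 1.03% were higher and 1.91% lower in Nos2-/- BMDMs. An unadjusted p under 0.05 was reached by 4 of the 44 genes and by 2740 of all 18193. Of the 44 differences, 38 were below 0, as were 9481 over all 18193 genes and 33 over the 36 complex I subunits. The medians were −0.08, −0.01 and −0.10, and the 44 differences ran from −0.29 to 0.17. In 13 of the 44 genes every stimulated Nos2-/- array lay below every stimulated WT array. This held for 8.89% of all genes and for 13 of the 36 complex I subunits. Most of the 44 genes are bright, and the share over bright genes alone is not given here. In 0 of the 44 genes the arrays lay wholly above, against 8.21% of all genes. The 4 genes with an unadjusted p under 0.05 were Cox7a1 (−0.29, adjusted p = 0.125), Uqcr10 (−0.16, adjusted p = 0.179), Cox8b (−0.24, adjusted p = 0.24) and Cox5a (−0.15, adjusted p = 0.313), all from limma. Cox7a1 and Cox8b are the dim isoforms described above. Of the cell type markers 1 was called between the stimulated genotypes, Ppbp, a platelet chemokine in the megakaryocyte list (−1.24, adjusted p = 0.0105 from limma), and its part in these values was not tested. Uqcr10, a small subunit of complex III, had signals of 10.20, 10.24 and 10.25 in stimulated WT and 10.10, 10.07 and 10.01 in stimulated Nos2-/- BMDMs, against 10.57, 10.58 and 10.60 and 10.65, 10.55 and 10.63 untreated. Its stimulated arrays were separate by genotype and its untreated arrays were not. Uqcr10 passed with the unmoderated linear model (adjusted p = 0.0415, 1.7% of all genes lower) and among the brightest 1820 genes (adjusted p = 0.0167, 8.08% of them lower), both fitted with limma, and under no other alternative run. Cox5a, which read 12.38, 12.45 and 12.40 in stimulated WT and 12.32, 12.31 and 12.16 in stimulated Nos2-/- BMDMs, passed under none.

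An interaction term, which tests whether the genotypes responded differently, was called for 0 of the 44 genes (limma), where 0.302% of all genes responded more positively and 0.676% more negatively in Nos2-/- BMDMs. The differences ran from −0.38 to 0.13 with a median of −0.09, beside −0.01 over all genes. Of the 44 differences 40 were below 0, as were 9674 over all 18193 genes and 34 over the 36 complex I subunits. This comparison shares its stimulated arrays with the one before, so these counts below 0 are not separate evidence. An unadjusted p under 0.05 was reached by Cox8b (−0.38, adjusted p = 0.307 from limma), Atp5g1 (−0.23, adjusted p = 0.397) and Uqcr10 (−0.19, adjusted p = 0.45). Of all 18193 genes, 1825 reached it. For Atp5a1 the difference was −0.04 (95% CI −0.23 to 0.15), for Uqcrc2 −0.09 (95% CI −0.37 to 0.19) and for Cycs 0.03 (95% CI −0.17 to 0.22). Over the 37 genes other than the restricted isoforms the intervals reached from −0.42 to 0.25, which does not show that the responses were alike within less than this.

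**Figure D4:**
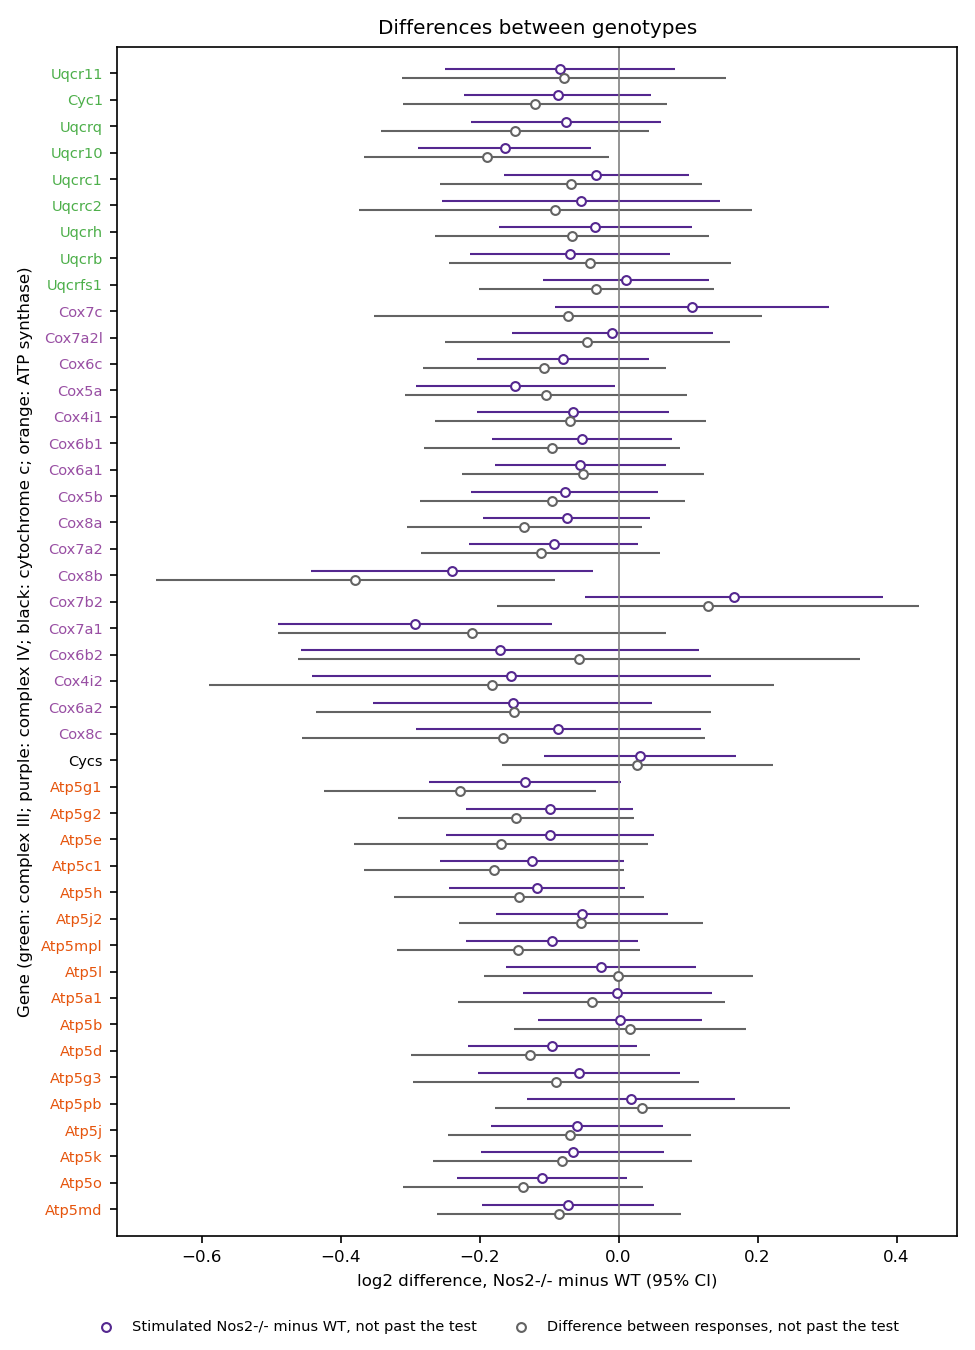
Log2 difference between the genotypes (x axis, Nos2-/- minus WT) for each of the 44 genes (y axis) among stimulated arrays (purple) and in the response to stimulation (grey), with bars for the 95% confidence interval from limma; open points did not pass the test. All points are open, and 38 of the purple and 40 of the grey points lie below 0.

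The 44 genes have 87 probe sets on the array, and 27 genes have more than 1. With all single-gene probe sets of the array tested, 48 of the 87, from 30 genes, fell in WT and 55, from 34 genes, fell in Nos2-/- BMDMs. The share of all probe sets that fell or rose is not given here, so these counts are no measure of an excess. The 6 that rose in WT and the 5 in Nos2-/- BMDMs belong to Cox6a2, Cox8c and Cycs, and 0 were called between the genotypes. Of the 4 probe sets of Cycs, 3 rose in both genotypes, by 0.26, 0.49 and 0.51 in WT and by 0.28, 0.37 and 0.48 in Nos2-/- BMDMs, and the last is dim (mean signal 4.16). The probe set used for Cycs thus gave the smallest of these rises. Cox8c has another probe set of mean signal 6.46 that rose by 0.95 in WT and 0.92 in Nos2-/- BMDMs, where the set used here gave 0.29 and 0.12. The 6 probe sets of Cox5b ran from −0.28 to 0.18 in Nos2-/- BMDMs. Names ending in _s_at, _x_at or _a_at mark probe sets that can match several transcripts. Without them 36 genes were left, of which 18 fell in WT and 19 in Nos2-/- BMDMs, again without a share over all genes. What then stood for a gene was often a dim probe set, as for Atp5g1 (mean signal 3.22, −0.04 and −0.02, not called), while Atp5g2, Atp5g3 and Uqcr11 kept the set used. Uqcrq was then represented by a set of mean signal 5.13, and the calls of Cox7c, Uqcrh and Atp5pb were lost in both genotypes and that of Atp5c1 in Nos2-/- BMDMs.

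**Figure D5:**
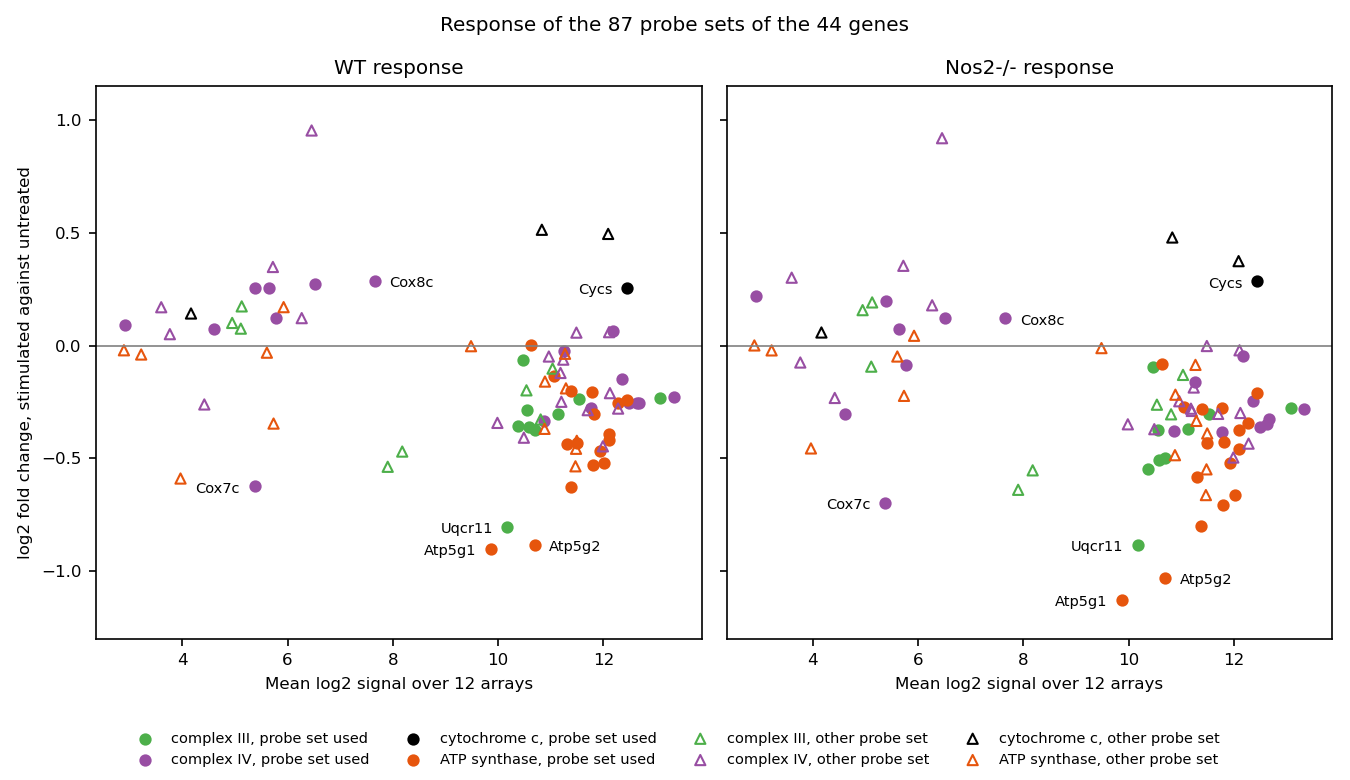
Log2 fold change on stimulation (y axis) against the mean log2 signal over 12 arrays (x axis) for the 87 probe sets of the 44 genes, in WT (left) and Nos2-/- (right) BMDMs, coloured by complex; filled circles are the sets used for the genes and open triangles the others. Most sets with signals above 10 lie below 0 and the bright sets of Cycs lie above it, while the sets with signals below 6 lie on both sides of it.

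The counts for the genes that build and serve the complexes stand beside the 28.4% of all genes that fell and 29.6% that rose in WT and the 28.2% and 26.3% in Nos2-/- BMDMs. Some of these genes stand in more than 1 of the lists below. Of 6 assembly factors of complex III, 3 fell in each genotype, while 2 rose in WT and 1 in Nos2-/- BMDMs. Ttc19, which clears fragments of the Rieske protein, rose by 1.47 in WT and 1.68 in Nos2-/- BMDMs (adjusted p = 2.8e-09 and 6.4e-10 from limma). Bcs1l, which inserts the Rieske protein, fell by 0.96 and 1.14, and Uqcc2 and Uqcc3, which help make cytochrome b and assemble the complex around it, fell by 1.20 and 1.38 and by 0.32 and 0.39. Of 22 measured assembly factors of complex IV, WT BMDMs raised 7 and lowered 9 and Nos2-/- BMDMs raised 6 and lowered 10, and Cox14, Taco1 and Pet117 are not analysed here. The 31.8% that rose and 40.9% that fell in WT lie near the 31.8% and 49.5% of all genes above the median signal. The copper chaperone Sco1 rose by 2.84 and 3.25 (adjusted p = 4.3e-11 and 9.9e-12 from limma) and Coa5 by 1.07 and 0.93, whereas Lrpprc, which stabilizes mitochondrial mRNAs, fell by 1.92 and 1.79 and Cox16 by 1.38 and 1.47. Of 4 genes for assembly and inhibition of the ATP synthase, 2 fell in WT and 3 in Nos2-/- BMDMs. The inhibitor Atpif1, which stops ATP hydrolysis, fell by 1.14 and 1.37, and Atpaf1, which assembles the beta subunit, by 1.09 and 1.19. Tmem70, which helps build the c ring, was at −0.15 (adjusted p = 0.08 from limma) and −0.30 (adjusted p = 0.0024), and Atpaf2 at 0.11 and −0.01, which did not pass. Of 6 genes for heme and copper supply, 1 rose and 4 fell in each genotype. Cox17, a copper chaperone, rose by 0.50 and 0.53, and Cox10, which makes the precursor of heme a, fell by 0.66 and 0.57. Fech, the last enzyme of heme synthesis, fell by 0.36 and 0.61 and was the 1 gene in the mitochondrial lists called between the stimulated genotypes, with a difference of −0.28 in Nos2-/- BMDMs (adjusted p = 0.0344 from limma).

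The other lists cover neighbouring steps, and their falls stand beside the same 28.4% and 28.2% of all genes, or 49.5% and 48.7% of those above the median signal. Of the 4 subunits of complex II, 3 fell in each genotype, Sdhc by 0.79 and 0.73, Sdha by 0.52 and 0.45 and Sdhb by 0.28 and 0.39, while Sdhd rose in WT (0.21, adjusted p = 0.0063 from limma) and was at 0.07 in Nos2-/- BMDMs. Of 4 carriers of ADP, ATP and phosphate, 3 fell in each genotype. Slc25a5 and Slc25a4, which exchange ADP for ATP, fell by 1.10 and 1.06 in WT and by 1.20 and 1.23 in Nos2-/- BMDMs, and Slc25a3, which brings in phosphate and copper, by 0.46 and 0.45. The testis form Slc25a31 was at −0.43 (adjusted p = 0.11 from limma) and −0.29 (adjusted p = 0.282). Of 17 nuclear regulators of respiratory genes, 12 fell in WT and 10 in Nos2-/- BMDMs, while 2 and 3 rose. Myc fell by 3.51 and 3.39 (adjusted p = 4e-12 and 5e-12 from limma), Creb1 by 1.08 and 1.10, Gabpa, an ETS factor, by 0.99 and 0.74, and Tfb2m, a mitochondrial transcription factor, by 0.85 and 0.87. Esrra, the estrogen-related receptor that drives respiratory genes, rose by 0.76 and 0.89 (adjusted p = 2.2e-06 and 4e-07 from limma). Of 12 genes for import and the outer membrane, 8 fell in WT and 10 in Nos2-/- BMDMs and 1 rose in each, among them the chaperones Hspd1 (−0.92 and −1.09) and Hspa9 (−0.77 and −0.94) and, in the outer membrane translocase, the pore Tomm40 (−0.67 and −0.78) and the receptor Tomm20 (−0.67 and −0.79). For comparison, 29 of 36 complex I subunits fell in WT (median −0.50) and 32 in Nos2-/- BMDMs (median −0.59), with 2 rising in each. Of 76 mitochondrial ribosomal protein genes 54 fell in WT (median −0.43) and 57 in Nos2-/- BMDMs (median −0.53), with 5 rising in each. Falls were thus also common in these sets, and the sets were not tested against each other.

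Promoter windows of the kind shown above were found in RefSeq for 33 of the 44 genes, some with several start sites, which gave 36 windows. The genes not matched were Atp5a1, Atp5mpl, Cox4i1, Cox4i2, Cox6a2, Cox6c, Cox8c, Cyc1, Uqcrb, Uqcrc2 and Uqcrq. Each motif was searched on both strands with exact letters, and matches of different motifs were allowed to overlap. The motif of NRF-1, an activator of respiratory genes, was in 8 windows or 22.2%, beside 4.6% of 32851 windows of all genes and 11% of the windows of genes above the median signal. The genes were Atp5c1, Atp5g2, Atp5g3, Atp5h, Atp5k, Atp5o, Cox6a1 and Uqcrc1. They all fell in Nos2-/- BMDMs, as 34 of the 44 genes did. In WT BMDMs all of them but Atp5o fell, as 30 of the 44 genes did. The 34 and the 30 include genes without a window. The core of the ETS motif (CCGGAAG), which GABP binds, was in 11 windows or 30.6%, beside 8.86% of all and 19.1% of those of brighter genes. They included Uqcr11 and Atp5e, which fell strongly, and Atp5md, which did not pass. The ERR motif (NAAGGTCA) of the estrogen-related receptors was in 4 windows, or 11.1%, against 4.69% and 3.04%, and YY1 (AAGATGGC) in 3, or 8.33%, against 2.75% and 4.93%. The CRE (TGACGTCA), the element of CREB and ATF factors, was in 2 windows, or 5.56%, against 1.79% and 3.21%. These 2 belong to Cycs, which rose, and Uqcrfs1, which did not pass in either genotype. The kB motif of NF-kB was in 0 of the 36 windows, where 0.411% of all windows and 0.5% of those of brighter genes held it. A match here is a string of letters and no evidence that a factor bound there.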

How the data were processed

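RNA of WT and Nos2-/- BMDMs was measured on 12 Affymetrix Mouse Genome 430 2.0 arrays, 3 in each of 4 groups taken from the sample labels. The authors deposited log2 values that they had made in Partek (version not given in the sources used here) by RMA. RMA removes background, gives the arrays 1 distribution and combines a set's probes into 1 value, so the values are relative to the other transcripts on an array. Array medians lay between 5.14 and 5.21. The arrays hold no counts, and their number limits the precision.

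Of 45101 probe sets, 64 controls were left out. Of the others, 34945 name exactly 1 gene, 932 name several and 9160 name none in the platform annotation. The first kind gave 18193 genes, for each of which the brightest set on average was taken, dim ones included. A linear model of the 4 group means, without a replicate block, was fitted to all 12 arrays in limma 3.58.1 (R 4.3.3) and moderated with eBayes, and tests were two-sided. P-values were adjusted over all 18193 genes (Benjamini-Hochberg) and genes were called at an adjusted p under 0.05, whatever the fold. An alternative took the limits in the methods, at least 1.5-fold with a false discovery rate below 0.5. The other alternatives were the arrays compared alone, an unmoderated linear model, an intensity trend, centring, quantile normalization, leaving out dim genes, the mean of all probe sets, leaving out probe sets ending in _s_at, _x_at or _a_at, leaving out each array and blocking by replicate number. Bright genes alone, and centring on them, were added after the data were seen. The fit was tested on simulated data.

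The genes, lists and tests were chosen with earlier results of these data known. Named genes are the 5 largest called rises and falls in each comparison, all paralogs, the redox-active genes, Uqcrc2 and Atp5a1, and up to 4 genes of each list with the smallest p. Uqcr10, Cox5a, Esrra, the markers and the remaining subunits were named outside that rule, after their values were seen. Promoter sequences are from RefSeq (GRCm38.p6). Python 3.11.15 prepared the tables, and matplotlib 3.10.9 drew the figures.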

Additional observations from a re-analysis of the deposited data

How the results depend on the processing

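Among genes called in WT, 18 of 33 were called under every alternative without a minimum fold, and in Nos2-/- BMDMs 24 of 35. With the thresholds of the methods, 5 genes fell and 0 rose in WT and 7 fell and 0 rose in Nos2-/- BMDMs, and the same counts came from 1.5-fold with an adjusted p under 0.05. With centring 7 rose in WT, where the number lower went to 20, and 5 rose in Nos2-/- BMDMs. Quantile normalization gave 3 rises in Nos2-/- BMDMs, and the brightest 1820 genes held 1 rise in WT. The mean of all probe sets gave 2 rises in Nos2-/- BMDMs, here without a share over all genes. Without probe sets ending in _s_at, _x_at or _a_at, 18 fell in WT and 19 in Nos2-/- BMDMs, from fewer genes and without a share over all genes. Uqcrq then turned to 0.17 in WT and 0.19 in Nos2-/- BMDMs and Cox5b to 0.18 in Nos2-/- BMDMs, through dimmer probe sets. With the mean of all probe sets, Cox8a in Nos2-/- BMDMs was at 0.0024, and the cause of this was not tested. Between the stimulated genotypes 1 gene, Uqcr10, was lower with the unmoderated model and 1 among the brightest genes.

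Leaving out each array in turn gave 1 to 4 rises and 29 to 32 falls in WT and 1 to 3 rises and 32 to 34 falls in Nos2-/- BMDMs, with 0 calls between the genotypes or for the difference between the responses. The rises in WT went from 3 to 1 without WT stimulated replicate 1, and those in Nos2-/- BMDMs from 1 to 2 without untreated replicate 1 and to 3 without stimulated replicate 2. With a replicate block there were 3 rises and 30 falls in WT, 2 rises (Cox7b2 added, adjusted p = 0.0455 from limma) and 34 falls in Nos2-/- BMDMs, and 0 calls elsewhere. For the fits without 1 array and with the block, shares over all genes are not given here. Their counts are thus no measure of an excess. Arrays of the same replicate number deviated together at correlations from −0.26 to 0.211. Such values cannot show whether arrays of the same number share a source, and the main fit did not pair them. With 3 arrays a group, the 95% intervals reached 0.12 to 0.29 to either side of a difference between the stimulated genotypes. These intervals are not adjusted for the number of genes, so larger differences could be missed as well. That of Cox7a1 (−0.49 to −0.10) excluded 0, but the gene was not called (adjusted p = 0.125 from limma).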
